A study of Mus musculus with 78 samples.

Results

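Kidneys of mice fed a high-fat diet were set against kidneys of mice fed a low-fat diet, with vehicle as the treatment in both groups and the repeated dosing regimen in both. The comparison rests on 15 libraries, 8 from the high-fat diet (HFD) and 7 from the low-fat diet (LFD), chosen by the diet, treatment and dose labels out of 78 labelled samples, 77 of which had counts here. All mice were male C57BL/6J, an inbred laboratory strain, and had been on their diet for 8 weeks. The LFD held 4% fat and the HFD 31% fat. Every mouse of both groups received 5 daily doses of the vehicle, 5% Alkamuls-EL620 (an emulsifier) in saline at 5 mL/kg, and was killed 4 h after the last dose. The series was built to test tetrachloroethylene (PERC), a dry-cleaning solvent, at 300 mg/kg per day in mice of several diets, and neither group described here received it. RNA came from pulverized whole kidney, so a level of a gene is an average over all the cells of the organ, and fewer cells of a type cannot be told apart from less RNA per cell. A high-fat diet given for some weeks is a model of fatty liver disease, and the series asks how the state of the liver bears on the kidney.

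The proximal tubule, which makes up most of the kidney cortex, burns fatty acids for energy, reabsorbs glucose, amino acids and phosphate from the filtrate, and secretes organic ions and drugs. It also makes glucose from lactate and glutamine and forms ammonia from glutamine, a step that lets the kidney excrete acid. Intercalated cells of the collecting duct carry the proton pumps and bicarbonate exchangers that finish this acid-base work. In male mice, a set of transporters and metabolic enzymes of the proximal tubule depends on androgens and is far more abundant than in females.

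The 15 libraries held between 10764826 and 22870153 counts in genes. Both groups were spread over the same 5 sequencing lanes, lanes 4 to 8. Levels are given as CPM, counts per 1000000 counts in genes after TMM scaling, and the TMM factors ran from 0.932 to 1.01 in HFD and from 0.989 to 1.04 in LFD. No pair of libraries within a group was identical, and the closest of the 49 pairs still differed by a chi-square of 6.61 per gene, where 1 is what counting error alone gives. Whether every library is a separate animal is not stated in the labels. The p-values of the comparison measure the spread between libraries within groups. That spread was estimated over all 47 repeated-regimen libraries, not over these 15 alone. Over the 15 libraries the first principal component held 30.2% of the variance. Diet accounted for 0.548 of its spread and lane for 0.359. Lane, with 5 levels, takes up more of a spread by chance than diet does, so these shares are not directly comparable.

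Fat tissue lies against the kidney, and levels of fat cell markers differed between the groups. The summed level of 6 genes that define fat cells (Adipoq, Plin1, Cidec, Lep, Ucp1 and Cidea) was 0.782, 2.54 and 11.6 CPM in LFD (lowest, median and highest library) and 3.18, 45.8 and 86.1 CPM in HFD. The HFD libraries fell into 2 sets: replicates 1, 3, 6 and 7 held 65.2 to 86.1 CPM, and the other 4 held 3.18 to 26.4 CPM, which overlapped the LFD range. Ucp1, the uncoupling protein that marks brown fat, was at 44.4, 49.1, 43.9 and 37.3 CPM in replicates 1, 3, 6 and 7. It was at 1.34 to 9.15 CPM in the other 4 HFD libraries. In LFD it was at no more than 1.42 CPM, and 1 library had none. Ucp1 was the largest part of the 6-marker sum in each of replicates 1, 3, 6 and 7. Adipoq did not split in this way, at 5.31 to 7.96 CPM in those replicates and 0.424 to 5.43 CPM in the other 4. Below, rich in fat markers means high in the 6-marker sum. Of 12 fat markers 8 were called higher in HFD and none lower, with a median log2 difference of 1.83, and of 7 brown fat markers 4 were called higher. Elovl3, a fatty acid elongase of brown fat, had 168 counts over the 8 HFD libraries and 1 count over the 7 LFD libraries, and Lep, the fat hormone leptin, was at 0 in 5 of the 7 LFD libraries. The level of the fat carrier Fabp4, which endothelial cells also make, was 46.7, 51.4 and 62.9 CPM in LFD and 55.9, 97.6 and 155 CPM in HFD. Car3, a carbonic anhydrase and one of the 12 markers, did not pass the test and had the opposite sign, at 38.6, 89.8 and 109 CPM in LFD and 27.3, 52.4 and 69.2 CPM in HFD (log2 -0.59, SE 0.31, adjusted p = 0.265). Fabp4, Car3 and Cfd made up most of the 12-marker sum, which was 96.5 to 181.7 CPM in LFD and 92.3 to 331.8 CPM in HFD. The call of Fabp4 was lost in 8 and that of Adipoq in 9 of the 15 fits that left out 1 library, and the number of fat markers called dropped to 4 without HFD replicate 3 and to 5 without each of LFD replicates 4, 5, 6 and 7. Because of this split, results are given with all 8 HFD libraries and, for the main genes and lists, also without replicates 1, 3, 6 and 7. Of the called genes looked at by name, 66 kept and 60 lost their call without them, 50 kept and 76 lost it with the 6 markers as a covariate, and 85 kept it in every fit that left out 1 library. These fits cannot say why a call was lost. Without replicates 1, 3, 6 and 7 only 4 HFD libraries remained, which lowers the power. The 6-marker covariate itself differed between the diets, so it also takes up part of the diet difference. What part the fat markers have in a result was not tested beyond these values.

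**Figure D1:**
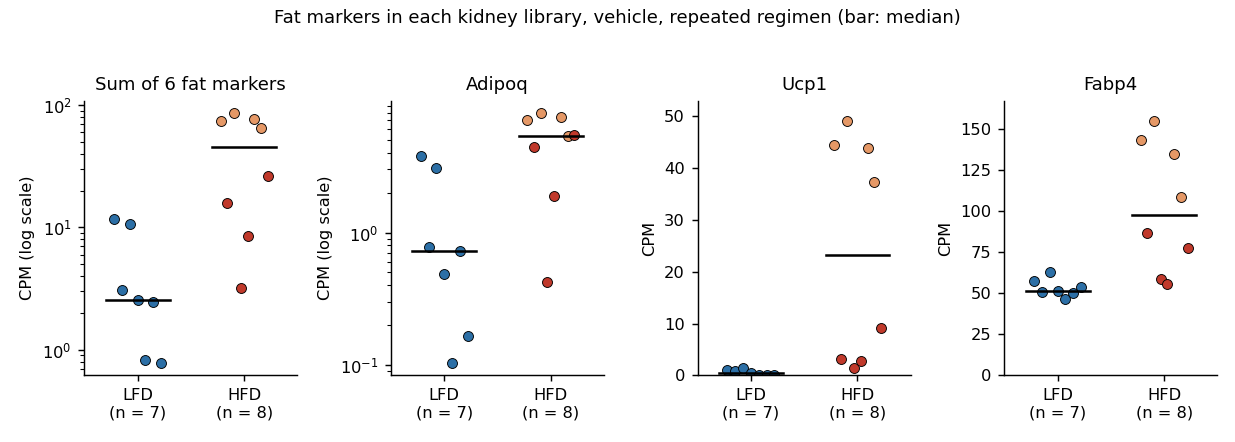
Level in CPM of the sum of 6 fat markers and of Adipoq (both on a log scale), Ucp1 and Fabp4 (linear scales) in each LFD library (blue, n = 7) and HFD library (n = 8), with the median as a bar. Orange points are HFD replicates 1, 3, 6 and 7, whose 6-marker sums of 65.2 to 86.1 CPM lie above all others, and red points are the other 4 HFD libraries.

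Of 14614 genes tested, 970 were called different between the diets (6.64%), 564 higher in HFD (3.86%) and 406 lower (2.78%). The counts of gene lists below are to be read against these shares. A gene is called where edgeR's quasi-likelihood test gives a Benjamini-Hochberg adjusted p under 0.05 over all genes tested, and every adjusted p below comes from that test. Most differences were small: the median absolute log2 difference of the called genes was 0.42, and 73 genes were higher and 52 lower by at least 1 on the log2 scale, which is a doubling or halving. The median over all genes tested was 0.00. In 390 of the called genes no HFD library overlapped an LFD library, and over all genes tested 468 did not overlap (3.2%). Of the 970 calls, 554 were kept in each of the 15 fits that left out 1 library. Without the 4 HFD libraries rich in fat markers 430 genes were called, 413 of them also called with all libraries, and with the mean log2 level of the 6 fat markers as a covariate 215 were called, 201 of them shared.

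**Figure D2:**
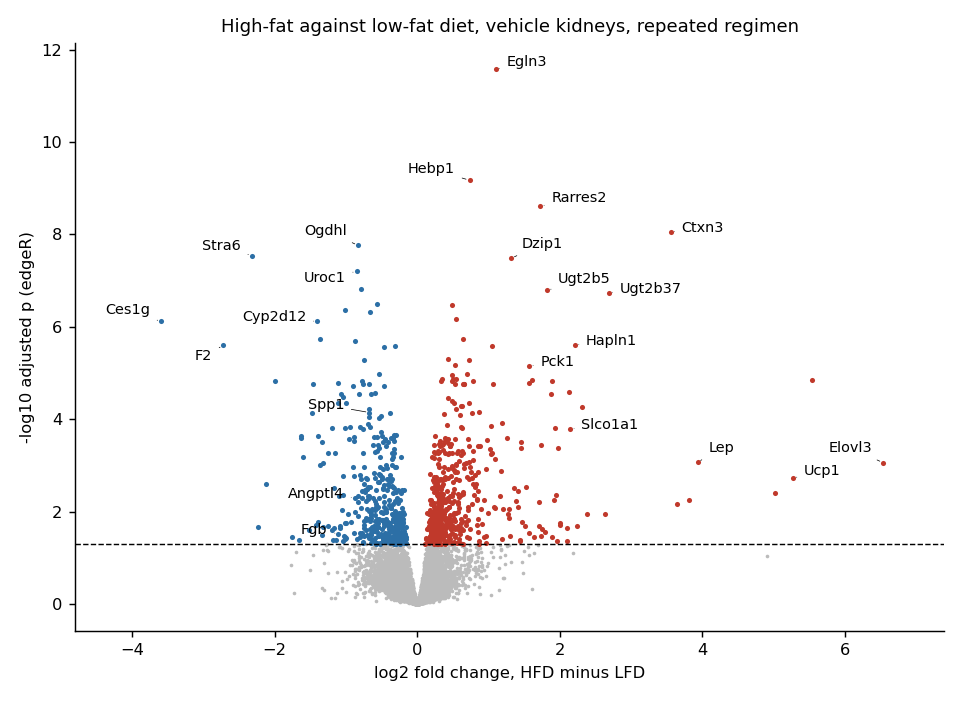
Each point is 1 of the 14614 genes tested, with the log2 difference HFD minus LFD on the horizontal axis and -log10 of the adjusted p on the vertical axis. Red points are the 564 genes called higher, blue points the 406 called lower, grey points were not called, and the dashed line is an adjusted p of 0.05. Egln3 has the smallest adjusted p, and the fat genes Elovl3, Ucp1 and Lep lie far to the right.

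A single gene of glucose synthesis, Pck1, and a single gene of ammonia release, Glud1, were higher in HFD without overlap between the diets. Pck1 encodes the cytosolic phosphoenolpyruvate carboxykinase, the enzyme that commits carbon to glucose synthesis. Its level was 1058, 1869.6 and 2195 CPM in LFD and 4121, 5189 and 6614 CPM in HFD (lowest, median and highest library), 2.98-fold higher (log2 1.58, SE 0.23, adjusted p = 7.03e-06). Every HFD library was above every LFD library, and the gap between the groups was wider than the whole LFD range. Glud1, the glutamate dehydrogenase, which releases ammonia from glutamate, was at 462, 498 and 550.5 CPM in LFD and 691, 759 and 880.4 CPM in HFD (log2 0.63, SE 0.12, adjusted p = 4.94e-04). The groups did not overlap in Glud1 either. Both calls held in each of the fits without 1 library, without the 4 libraries rich in fat markers (adjusted p = 2.52e-04 for Pck1 and 0.00594 for Glud1) and with the 6 fat markers as a covariate.

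The other genes of glucose handling moved less. Of 25 tested genes of glucose transport, glycolysis and gluconeogenesis 3 were higher, 1 was lower and 21 did not pass, with a median log2 difference of 0.11. Over all genes 3.86% were higher and 2.78% lower. Without the 4 libraries rich in fat markers 1 of the list was higher and none lower. The gluconeogenic Fbp1 had a log2 difference of 0.28 that missed the threshold (adjusted p = 0.0618). Slc5a2, the sodium-glucose transporter SGLT2 that takes up most of the filtered glucose, was at 300.3, 401 and 492 CPM in LFD and 186, 265 and 333 CPM in HFD, groups that overlapped (log2 -0.57, SE 0.16, adjusted p = 0.0238). That call was lost without each of HFD replicates 1, 3 and 4 and LFD replicates 5 and 7, with an adjusted p of up to 0.071. Pdk3, a kinase that turns off pyruvate dehydrogenase, was higher (log2 0.45, SE 0.13, adjusted p = 0.0197) and lost its call in 3 of those 15 fits. Hk2, the hexokinase of muscle and fat, was at 4.03 to 6.68 CPM in the 4 HFD libraries rich in fat markers, 0.777 to 1.75 CPM in the other 4 and 0.447, 0.712 and 1.48 CPM in LFD. Its log2 difference of 1.95 with all libraries (SE 0.46, adjusted p = 0.00431) was 0.77 without those 4 (adjusted p = 0.471).

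The 250 bases before the start of Pck1 and of 3 genes with the largest differences among transporters and detoxification enzymes are shown, since these genes carry the clearest diet difference of their groups. They were read from RefSeq's GRCm38.p6 annotation (the counts were made on GRCm38) and are written 5′ to 3′ on the gene's strand. Pck1 lies at chr2:173152823-173153072 on the plus strand, Slco1a1 at chr6:141946963-141947212, Ugt2b37 at chr5:87254789-87255038 and Ces1g at chr8:93337210-93337459, all 3 on the minus strand. Capitals mark a cyclic AMP response element, TTACGTCA, or a nuclear receptor half-site, AGGTCA, on either strand.
Pck1: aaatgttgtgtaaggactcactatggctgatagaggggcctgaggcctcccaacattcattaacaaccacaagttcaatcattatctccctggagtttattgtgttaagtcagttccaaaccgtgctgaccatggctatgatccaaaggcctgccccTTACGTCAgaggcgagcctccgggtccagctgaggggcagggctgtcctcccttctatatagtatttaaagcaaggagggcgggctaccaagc
Slco1a1: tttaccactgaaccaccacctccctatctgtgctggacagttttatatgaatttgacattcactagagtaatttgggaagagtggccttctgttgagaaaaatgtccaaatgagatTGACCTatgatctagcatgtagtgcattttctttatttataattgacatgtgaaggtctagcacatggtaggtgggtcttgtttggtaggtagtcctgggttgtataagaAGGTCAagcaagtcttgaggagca
Ugt2b37: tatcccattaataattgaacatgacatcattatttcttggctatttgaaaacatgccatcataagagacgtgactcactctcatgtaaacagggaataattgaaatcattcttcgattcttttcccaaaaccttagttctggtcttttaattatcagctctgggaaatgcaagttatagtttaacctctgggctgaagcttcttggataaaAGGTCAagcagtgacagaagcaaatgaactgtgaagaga
Ces1g: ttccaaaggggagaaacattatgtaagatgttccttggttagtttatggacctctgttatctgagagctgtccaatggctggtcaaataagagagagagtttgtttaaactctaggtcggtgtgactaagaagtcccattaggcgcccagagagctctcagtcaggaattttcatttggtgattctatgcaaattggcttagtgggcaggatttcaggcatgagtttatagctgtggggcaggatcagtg
The window of Pck1 held 1 TTACGTCA, 93 to 86 bases before the start, and no AGGTCA. The windows of Slco1a1 and Ugt2b37 held 2 and 1 copies of AGGTCA or its reverse complement, and neither motif was in the window of Ces1g. Of 32851 such windows over the genome 0.447% held TTACGTCA and 14.02% held AGGTCA on either strand. A match describes the letters and is not a binding site.

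Transporters and enzymes that handle drugs and steroids differed in both directions. Slco1a1, an organic anion transporter that is abundant in male kidney, was at 69.8, 161 and 196 CPM in LFD and 514, 599 and 905 CPM in HFD, 4.44-fold higher with no overlap (log2 2.15, SE 0.38, adjusted p = 1.62e-04). Odc1, ornithine decarboxylase, the first enzyme of polyamine synthesis and an androgen-responsive gene of mouse kidney, was at 376, 415 and 556 CPM in LFD and 686, 891 and 1162 CPM in HFD (log2 1.03, SE 0.20, adjusted p = 5.59e-04). These were 2 of 4 genes called higher among 15 tested genes that are enriched in male kidney, with none called lower and a median log2 difference of 0.45, against 3.86% of all genes called higher. The other members called were Slc22a30, an organic anion transporter family member, and Hsd17b11, a steroid dehydrogenase, at log2 differences of 0.74 and 0.46, which lost their calls in 4 and 6 of the 15 fits without 1 library. The list had 2 called genes without each of HFD replicate 1 and LFD replicates 5, 6 and 7, and 2 without the 4 libraries rich in fat markers. It had 1 higher with the 6 fat markers as a covariate, 5 higher and 2 lower with DESeq2 and 6 higher and 2 lower with lane as a covariate. The Cyp4a12 pair, male-specific fatty acid hydroxylases with near-identical sequences, had log2 differences of 0.68 and -0.68 that did not pass (adjusted p = 0.0658 and 0.0871).

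Of 23 glucuronosyltransferases, sulfotransferases and carboxylesterases 6 were higher and 3 lower, against 3.86% and 2.78% of all genes. These calls became 5 and 2 without the 4 libraries rich in fat markers and 3 and 2 with the 6 markers as a covariate. Ugt2b37, which attaches glucuronic acid to steroids and drugs, was at 44.3, 60.8 and 79.2 CPM in LFD and 233, 387 and 597 CPM in HFD, 6.44-fold higher (log2 2.69, SE 0.32, adjusted p = 1.81e-07). Its family members Ugt2b5 and Ugt2b38 were also higher (log2 1.83 and 0.85), and in all 3 the groups did not overlap. Ces1g, a carboxylesterase that splits lipid and drug esters, was the called gene of this list with the largest fall, from 20.04, 56.3 and 112 CPM in LFD to 2.01, 3.68 and 10.03 CPM in HFD. That is 12.1-fold lower (log2 -3.60, SE 0.46, adjusted p = 7.63e-07) with no overlap between the groups. Its paralog Ces1d went the other way, from 324, 431 and 551 CPM in LFD to 609, 673 and 762 CPM in HFD (log2 0.72, adjusted p = 2.71e-04). The Ugt2b, Ces1, Cyp2d and Slc22a genes are families of similar copies. Reads with several alignments, 9.64 to 26.3% of the reads of a library, were in no gene's count, so the levels of single members of these families are uncertain.

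Among cytochrome P450 and flavin monooxygenase genes 3 of 31 were higher and 5 lower, against 3.86% and 2.78% of all genes. Cyp2e1, which oxidizes small solvents and ketones, was at 1203, 1448 and 1787 CPM in LFD and 2201, 2470.1 and 2746 CPM in HFD with no overlap (log2 0.77, SE 0.13, adjusted p = 7.14e-05). Cyp2d12 was at 89.3, 146.8 and 213 CPM in LFD and 39.1, 55.7 and 81.7 CPM in HFD, also without overlap (log2 -1.404, SE 0.18, adjusted p = 7.63e-07). Both calls held without the 4 libraries rich in fat markers and with the 6 markers as a covariate, but the list's 3 higher and 5 lower calls became 2 and 1 without those libraries and 1 and 3 with the covariate. Of 28 organic ion and drug transporters 6 were higher, among them Slco1a1, the carnitine and cation transporter Slc22a4 (log2 0.52) and the anion transporter Slco3a1 (log2 0.53), and 1, the efflux pump Abcc4, was lower (log2 -0.57, adjusted p = 0.0485, a call lost in 13 of the 15 fits without 1 library). The 6 higher became 3 without LFD replicate 5, and 3 with none lower without the 4 libraries rich in fat markers. Of 32 genes of glutathione transfer and mercapturate formation 6 were lower and 2 higher, and the 6 lower became 1 without those 4 libraries and 2 with the covariate. The transferases Gsta3 and Gsta4 were lower (log2 -0.53 and -0.59), while Anpep, an aminopeptidase of the brush border, and Nat8, which acetylates cysteine conjugates, were higher (log2 0.53 and 0.68). Anpep and Nat8 kept their calls without the 4 libraries rich in fat markers (adjusted p = 5.98e-04 and 0.0203), as did Gsta4 (adjusted p = 0.0473), and Gsta3 did not (adjusted p = 0.0795).

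**Figure D3:**
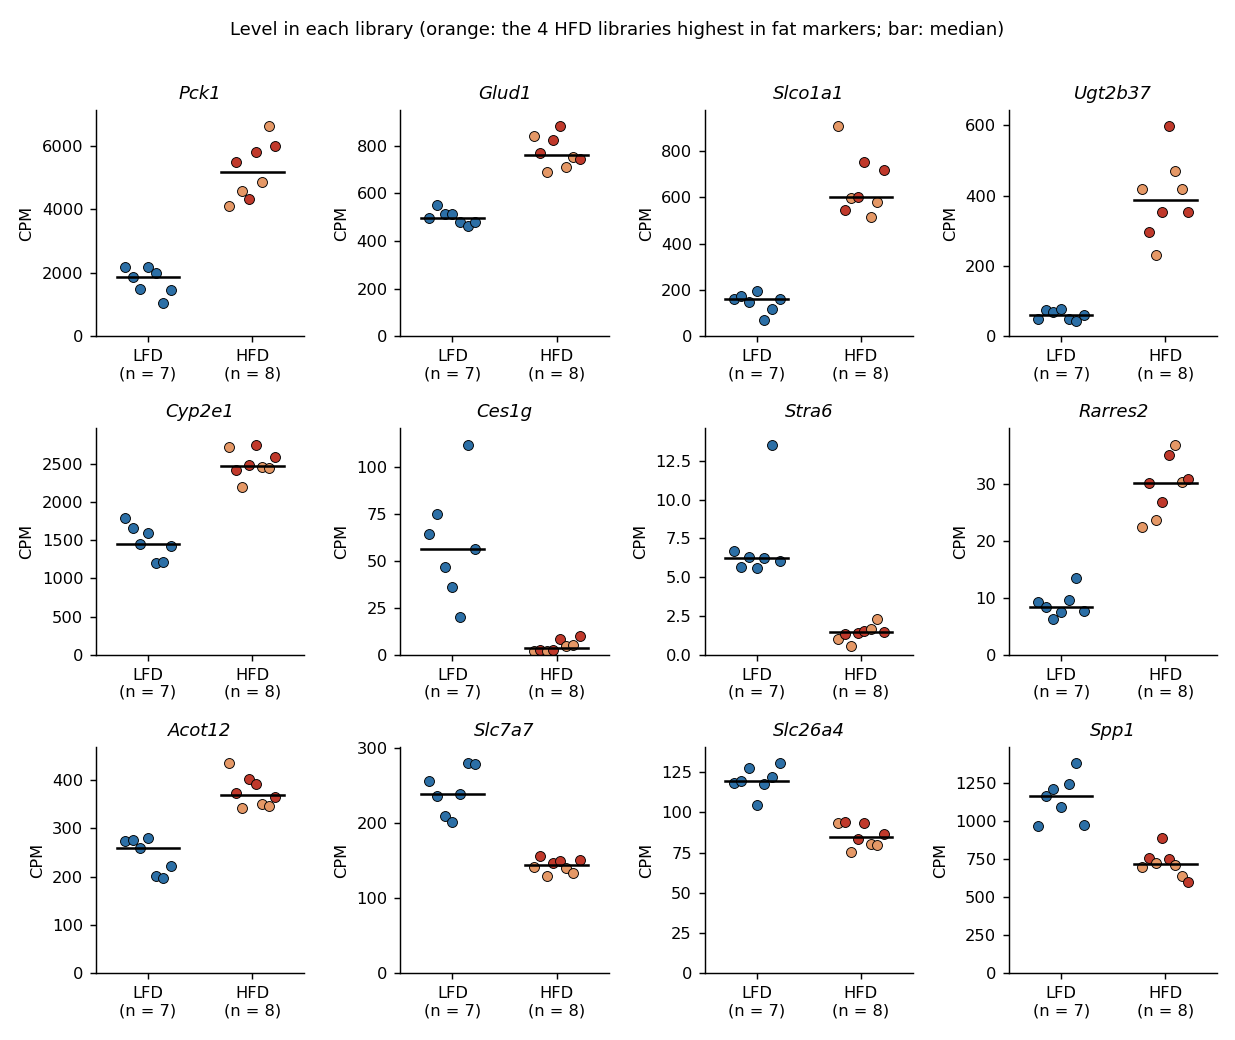
Level in CPM on linear scales from 0 of 12 genes in each LFD library (blue, n = 7) and HFD library (n = 8; orange marks replicates 1, 3, 6 and 7, rich in fat markers), with the median as a bar. In each of the 12 genes the 2 diets do not overlap. Orange and red points cover overlapping ranges in all genes but Slc7a7. There the orange points, at 129.9 to 140.9 CPM, lie below the red points, at 146.6 to 156.5 CPM.

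Some genes that break down fatty acids were slightly higher on the high-fat diet. Of 48 tested PPARA targets and fatty acid oxidation genes 11 were higher, 2 were lower and 35 did not pass, with a median log2 difference of 0.18. Over all genes 3.86% were higher and 2.78% lower. The called enzymes rose by between 0.25 and 0.62 on the log2 scale. Acot12, a cytosolic thioesterase that frees acetate from acetyl-CoA, was at 198, 259 and 281 CPM in LFD and 342, 369.6 and 434 CPM in HFD with no overlap (log2 0.62, SE 0.11, adjusted p = 1.46e-04). Decr1, a mitochondrial reductase for unsaturated fatty acids, and Abcd3, a fatty acid importer of peroxisomes, were higher as well (log2 0.43 and 0.36). The 11 higher genes became 7 without LFD replicate 5 or 6, 6 without LFD replicate 7, 4 without the 4 HFD libraries rich in fat markers and 2 with the 6 markers as a covariate.

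The 2 members that were lower are targets of PPARA in liver. Angptl4, a secreted inhibitor of lipoprotein lipase, was at 62.5, 81.7 and 114 CPM in LFD and 36.2, 45.3 and 66.7 CPM in HFD, and only the highest HFD library reached into the LFD range (log2 -0.87, SE 0.21, adjusted p = 0.00501). Creb3l3, a transcription factor of liver and gut that acts in lipid metabolism, was near the detection limit, at 0.726, 1.33 and 2.18 CPM in LFD and 0.0997, 0.536 and 0.864 CPM in HFD (log2 -1.51, adjusted p = 0.0251), and its call was lost in 6 of the 15 fits without 1 library. Of 22 genes of fatty acid uptake, binding and activation 4 were higher and none lower. Cd36, a fatty acid receptor at the cell surface, was at 458, 559 and 708 CPM in LFD and 805, 907 and 1173 CPM in HFD, and Mogat1, which joins fatty acids to monoacylglycerol, was at 67.3, 100.4 and 116 and 141.8, 167 and 187 CPM. Neither gene's groups overlapped (log2 0.72, SE 0.15, adjusted p = 8.42e-04, and log2 0.73, SE 0.10, adjusted p = 5.23e-06). In these 2 genes the 4 HFD libraries rich in fat markers, at 805 to 1173 and 141.8 to 187 CPM, spanned a range that held the other 4. The other called members were Acsl3, an activating enzyme for long-chain fatty acids (log2 0.58), and the fat marker Fabp4.

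Of 27 genes that make fatty acids and triglycerides 2 were higher and 1 lower, against 3.86% and 2.78% of all genes. Thrsp, a lipogenic protein of fat and liver, was at 13.2 to 20.9 CPM in the 4 HFD libraries rich in fat markers, 1.55 to 8.17 CPM in the other 4 and 2.19, 2.57 and 5.06 CPM in LFD (log2 1.70, adjusted p = 0.0203). Its log2 difference was 0.44 without those 4 libraries (adjusted p = 0.705), and the call was also lost without HFD replicate 3 alone (log2 1.47, adjusted p = 0.0574) or LFD replicate 5 alone (log2 1.62, adjusted p = 0.0511). Elovl2, which lengthens polyunsaturated fatty acids, was lower (log2 -0.61, SE 0.11, adjusted p = 2.48e-04) and kept its call without them (adjusted p = 0.00972). In cholesterol synthesis 2 of 25 genes were higher, the sterol isomerase Ebp (log2 0.55, adjusted p = 6.08e-05) and the feedback regulator Insig1 (log2 0.60, adjusted p = 0.0300). No gene of 13 LXR targets passed in either direction, and 2 of 38 nuclear-encoded respiratory chain subunits were higher, Ndufa9 and Ndufb3 (log2 0.16 and 0.24), neither of which was called without the 4 libraries rich in fat markers.

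Markers of intercalated cells were lower in HFD. Of 8 tested markers 6 were called lower and none higher, with a median log2 difference of -0.39, against 2.78% of all genes called lower. Their summed level was 506 to 753 CPM in LFD and 391 to 456 CPM in HFD, groups that did not overlap. Slc26a4, or pendrin, the chloride-bicarbonate exchanger of type B intercalated cells, was at 104.7, 119.6 and 130.3 CPM in LFD and 75.1, 84.9 and 93.9 CPM in HFD (log2 -0.48, SE 0.09, adjusted p = 3.06e-04). Atp6v1g3, a subunit of the proton pump, was at 47.2, 55.9 and 76.6 CPM in LFD and 34.1, 40.4 and 43.6 CPM in HFD (log2 -0.53, SE 0.10, adjusted p = 4.08e-04). In both genes every HFD library was below every LFD library. Foxi1, the transcription factor that specifies these cells, was at 26.5, 29.5 and 36.7 CPM in LFD and 19.5, 23.9 and 27.02 CPM in HFD, where the 2 highest HFD libraries lay above the lowest LFD one (log2 -0.40, SE 0.11, adjusted p = 0.0210). The calls dropped to 3 without LFD replicate 6, to 3 without the 4 HFD libraries rich in fat markers, where the list's median was -0.36, and to 1 with the 6 markers as a covariate, where it was -0.29. Slc4a1, the exchanger of type A cells that red blood cells also carry, and Aqp6 did not pass (log2 -0.39 and -0.24, adjusted p = 0.0984 and 0.434). Of the other cell types, none of 9 principal cell, 7 distal convoluted tubule, 6 thick ascending limb, 8 podocyte, 9 endothelial and 8 fibroblast and mural cell markers passed in either direction. The median log2 difference was -0.23 for distal convoluted tubule and -0.18 for principal cell markers, and with lane as a covariate 1 distal marker was higher and 2 lower, and 1 principal cell and 1 podocyte marker were lower. Of 12 proximal tubule markers Cyp2e1 was higher, and Slc5a2 and the lactate transporter Slc5a12 were lower (log2 -0.62 for Slc5a12).

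**Figure D4:**
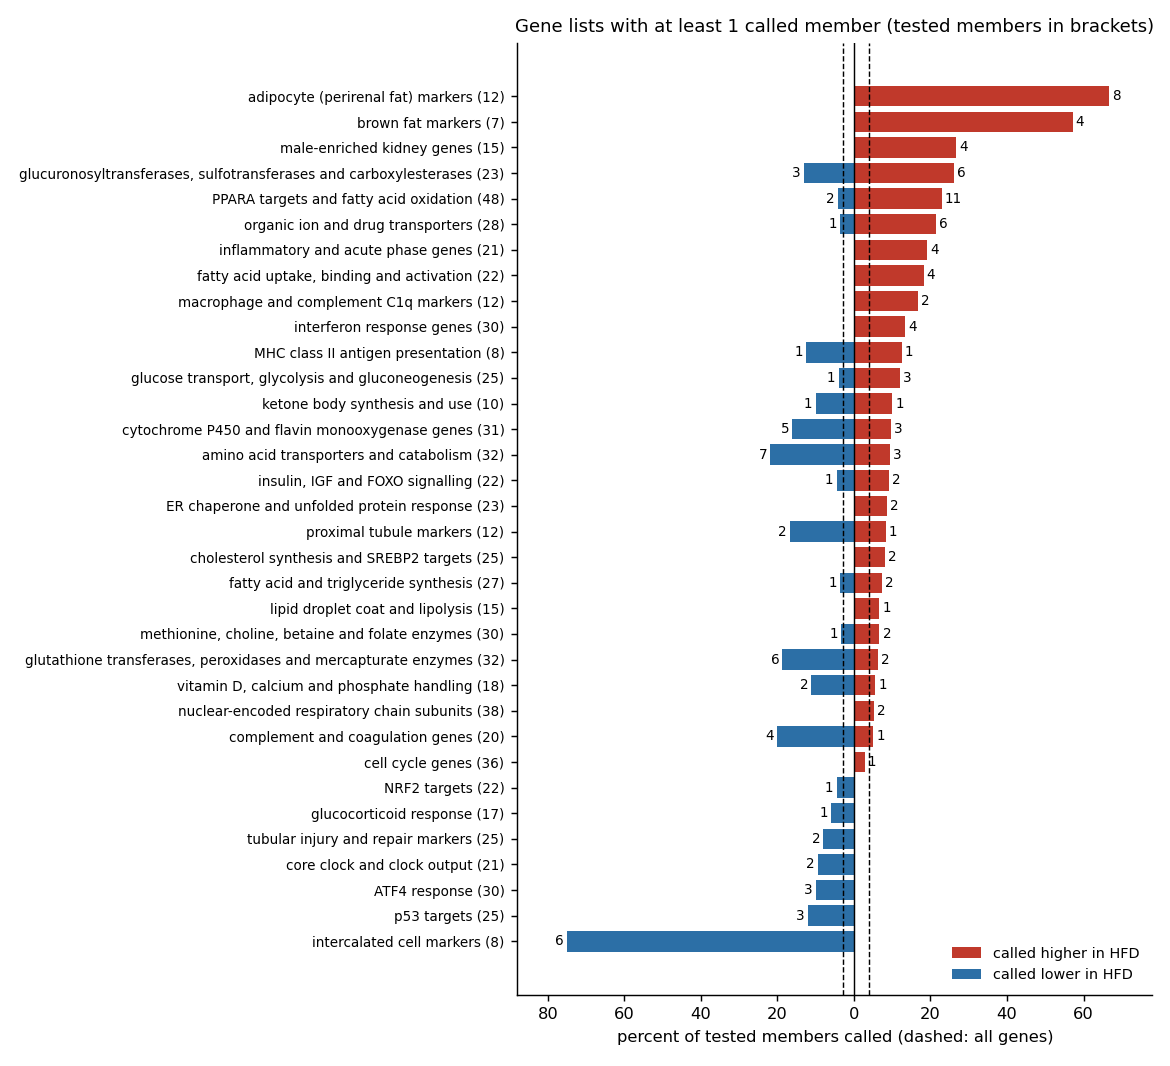
Percent of the tested members of each gene list that were called higher (red, right) or lower (blue, left) in HFD, for the lists with at least 1 call, with the number of called members beside each bar and of tested members in brackets. The dashed lines mark the 3.86% of all genes called higher and the 2.78% called lower, and intercalated cell markers (6 of 8 lower) and fat markers (8 of 12 higher) have the longest bars.

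Of 32 amino acid transporters and catabolic enzymes 7 were lower and 3 higher, the latter including Glud1 and Hgd, an enzyme of tyrosine breakdown (log2 0.27). Over all genes 2.78% were lower and 3.86% higher. Slc7a7, which exports lysine and arginine across the basolateral membrane, was at 201, 239 and 279 CPM in LFD and 129.9, 143.8 and 157 CPM in HFD with no overlap (log2 -0.76, SE 0.12, adjusted p = 1.7e-05). Slc3a2, the heavy chain that Slc7a7 needs, was at 202, 235 and 280.5 CPM in LFD and 142.5, 166 and 186 CPM in HFD (log2 -0.52, SE 0.11, adjusted p = 0.00159). Slc6a19, the main importer of neutral amino acids, was lower too (log2 -0.57, SE 0.11, adjusted p = 4.89e-04), as were the proline oxidase Prodh and the branched-chain aminotransferase Bcat2 (log2 -0.45 and -0.44). Without the 4 HFD libraries rich in fat markers 3 of the list were lower and 3 higher. In the ATF4 response, which cells turn on when amino acids run short, 3 of 30 genes were lower and none higher. They were Slc3a2, the stress sensor Sesn2 (log2 -0.54) and Phgdh, the first enzyme of serine synthesis, at 8.82, 13.1 and 20.1 CPM in LFD and 1.396, 5.86 and 9.89 CPM in HFD (log2 -1.20, SE 0.35, adjusted p = 0.0255). Of the 3, only 1 kept its call without HFD replicate 1, HFD replicate 5 or LFD replicate 6, and none passed without the 4 libraries rich in fat markers.

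Tubular injury markers were not higher in HFD. None of 25 was called higher and 2 were called lower, with a median log2 difference of -0.17. Havcr1 (KIM-1), the standard marker of proximal tubule damage, was at 1.78, 2.54 and 2.62 CPM in LFD and 1.21, 1.68 and 3.95 CPM in HFD (log2 -0.24, SE 0.78, adjusted p = 0.890). Lcn2 (NGAL), another injury marker, was at 1.09, 1.87 and 2.26 CPM in LFD and 0.941, 1.72 and 4.20 CPM in HFD (log2 0.17, SE 0.51, adjusted p = 0.885). The ranges of the 2 diets overlapped in both genes, and differences of this size were not detectable with this spread. Spp1, or osteopontin, a secreted protein of injured and distal tubules, was at 968, 1167 and 1379.6 CPM in LFD and 603, 719 and 892 CPM in HFD with no overlap (log2 -0.67, SE 0.11, adjusted p = 7.14e-05), and kept its call in every alternative run. Fgb, the fibrinogen beta chain, was lower (log2 -1.10, SE 0.33, adjusted p = 0.0301), at levels of 1.79, 2.79 and 5.76 CPM in LFD and 0.399, 1.35 and 3.53 CPM in HFD that overlapped, and its call was lost in 7 of the 15 fits without 1 library.

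Several complement and coagulation genes were lower as well. Of 20 tested 4 were lower and 1 higher, although the list's median log2 difference was above 0, at 0.10. C2, a protease of the classical complement pathway, was at 61.7, 72.9 and 81.1 CPM in LFD and 39.1, 41.8 and 45.6 CPM in HFD (log2 -0.78, SE 0.094, adjusted p = 1.48e-07). Cfi, the protease that inactivates C3b and C4b, was at 7.30, 9.51 and 11.99 CPM in LFD and 3.19, 4.27 and 6.78 CPM in HFD (log2 -1.07, SE 0.17, adjusted p = 2.9e-05). The groups did not overlap in either gene, and both calls held without the 4 libraries rich in fat markers. Coagulation factor V, F5, was lower (log2 -0.50), while tissue factor, F3, was higher (log2 0.39, adjusted p = 0.00632). Both lost their calls without the 4 libraries rich in fat markers (adjusted p = 0.271 and 0.0539), where the list had 2 lower and none higher, as it had with the 6 markers as a covariate. F2, or prothrombin, which is made mainly in liver and is not in that list, was at 1.72, 2.16 and 2.65 CPM in LFD and 0.105, 0.255 and 0.635 CPM in HFD, 6.59-fold lower without overlap (log2 -2.72, SE 0.38, adjusted p = 2.53e-06).

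Of 21 inflammatory and acute phase genes tested 4 were higher and none lower, against 3.86% of all genes called higher. With the 6 fat markers as a covariate none was called, and 1 was higher without the 4 HFD libraries rich in fat markers, Cxcl1 (log2 1.20, adjusted p = 0.0155). Hp, haptoglobin, an acute phase protein that fat also makes, was at 4.79 to 7.06 CPM in the 4 HFD libraries rich in fat markers, 1.06 to 2.74 CPM in the other 4 and 0.242, 0.566 and 2.18 CPM in LFD (log2 1.999, SE 0.55, adjusted p = 0.0177). Without those 4 its log2 difference was 0.71 (adjusted p = 0.611). Tlr2, a receptor for bacterial lipoproteins, and Il6st, the shared receptor chain of the IL-6 family, were higher (log2 0.57 and 0.21), and the chemokine Cxcl1 was at 0.415, 0.604 and 0.726 CPM in LFD and 0.422, 0.998 and 1.94 CPM in HFD, which overlapped (log2 0.87, a call lost in 12 of the 15 fits without 1 library). The list held 2 calls without each of HFD replicates 4 and 5 and LFD replicates 3, 4, 6 and 7. Of 30 interferon response genes 4 were higher, the antiviral synthetases Oas2, Oas1a and Oasl2 and the membrane protein Ifi27 (log2 0.85, 0.65, 0.30 and 0.34). Oas2 alone was called without the 4 libraries rich in fat markers (adjusted p = 0.0129), and the 4 became 1 without LFD replicate 3 and 2 without HFD replicate 7 or LFD replicate 7. Of 12 macrophage markers Lyz2 and Ly86 were higher (log2 0.43 and 0.41, calls lost in 10 and 11 of the 15 fits without 1 library and without the 4 libraries rich in fat markers), and the list's summed level was 156 to 179 CPM in LFD and 171 to 204 CPM in HFD. No lymphocyte (6 tested), neutrophil (3 tested), red blood cell (2 tested), adrenal (2 tested) or skeletal muscle (1 tested) marker passed. None of 24 extracellular matrix and fibrosis genes passed either.

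The genes with the smallest p-values lay mostly outside these groups. Egln3, an oxygen-sensing prolyl hydroxylase that is itself induced by hypoxia-inducible factor, was at 15.9, 18.4 and 21.2 CPM in LFD and 33.1, 39.3 and 46.6 CPM in HFD (log2 1.10, SE 0.088, adjusted p = 2.67e-12). Rarres2, which encodes the secreted adipokine chemerin, was at 6.23, 8.43 and 13.6 CPM in LFD and 22.4, 30.3 and 36.9 CPM in HFD, 3.32-fold higher (log2 1.73, SE 0.17, adjusted p = 2.42e-09). Its level was 22.4 to 36.9 CPM in the 4 HFD libraries rich in fat markers and 26.9 to 35.1 CPM in the other 4. Hebp1, a heme-binding protein, was at 42.1, 51.6 and 54.8 CPM in LFD and 74.7, 87.2 and 90.6 CPM in HFD (log2 0.73, SE 0.07, adjusted p = 6.69e-10). Ctxn3, a small membrane protein of kidney and brain, was 11.8-fold higher, at 0.309, 0.534 and 1.05 CPM in LFD and 4.68, 6.71 and 15.7 CPM in HFD (log2 3.56, SE 0.37, adjusted p = 8.91e-09). None of these 4 genes had groups that overlapped. Also among the 12 higher genes with the smallest p were Dzip1, needed for cilia (log2 1.32), the matrix link protein Hapln1 (log2 2.22), the sulfite oxidase Suox (log2 0.49), the mitochondrial iron-sulfur protein Cisd3 (log2 0.54), the calcium sensor Ncs1 (log2 0.64) and Slc16a6, a monocarboxylate transporter that exports ketone bodies from zebrafish liver (log2 1.04).

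Among the lower genes, Stra6, the cell-surface receptor that takes up retinol from its binding protein, was at 5.62, 6.25 and 13.5 CPM in LFD and 0.564, 1.45 and 2.29 CPM in HFD, 5.00-fold lower (log2 -2.32, SE 0.26, adjusted p = 2.87e-08). Its LFD libraries lay between 5.62 and 6.72 CPM apart from replicate 6 at 13.5 CPM, and without that library the log2 difference was -2.10. The related receptor Stra6l was lower too (log2 -0.90, SE 0.14, adjusted p = 1.9e-05). Uroc1, urocanase of histidine breakdown, was at 83.5, 95.3 and 101 CPM in LFD and 42.7, 52.6 and 62.1 CPM in HFD (log2 -0.85, SE 0.10, adjusted p = 6.29e-08). The remaining lower genes with the smallest p included Ogdhl, a relative of 2-oxoglutarate dehydrogenase (log2 -0.83), Acss1, which activates acetate in mitochondria (log2 -0.56), the elastase Cela1 (log2 -1.01), the sulfotransferase Sult1c2 (log2 -0.66), Slc22a29 of the organic anion transporter family (log2 -1.36) and the secreted phospholipase Pla2g5 (log2 -0.88). The 12 genes with the smallest p in each direction are all named above, and each kept its call without the 4 libraries rich in fat markers and with the 6 markers as a covariate.

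Vitamin D and phosphate genes gave 3 calls of 18, against 6.64% of all genes. Cyp27b1, the enzyme that makes active vitamin D in the proximal tubule, was at 6.03, 11.5 and 33.8 CPM in LFD and 3.56, 6.22 and 11.1 CPM in HFD, groups that overlapped (log2 -1.18, SE 0.37, adjusted p = 0.0403). LFD replicate 1, at 33.8 CPM, carried much of that difference: without it the log2 difference was -0.80 and the adjusted p 0.20, and the call was lost in 10 of the 15 fits without 1 library. Slc34a3, a phosphate transporter of the brush border, was at 62.6, 81.5 and 88.8 CPM in LFD and 39.2, 45.97 and 51.7 CPM in HFD without overlap (log2 -0.78, SE 0.20, adjusted p = 0.00835), and the phosphate transporter Slc20a1 was higher (log2 0.49). Of 21 clock genes Nr1d1, the repressor REV-ERB alpha, and Bhlhe41, another clock repressor, were lower (log2 -0.73 and -0.77). Of 25 p53 targets 3 were lower, Plk3, Plk2 and Sesn2 (log2 -1.25, -0.47 and -0.54), and none of the 3 was called without the 4 libraries rich in fat markers. The cell cycle list gave 1 call of 36, Tyms (log2 0.49), the insulin and FOXO list 3 of 22, Foxo3 lower and the adiponectin receptors Adipor1 and Adipor2 higher (log2 -0.68, 0.13 and 0.18, none of them called without those libraries), and the renin-angiotensin and sodium list none of 18. In the remaining lists, 1 of 15 lipid droplet genes was higher (the fat marker Cidec), 2 of 23 ER chaperone genes were higher (Edem1 and Dnajc3), 2 of 30 methionine and folate enzymes were higher and 1 lower, 1 of 8 MHC class II genes was higher and 1 lower, and 1 of 10 ketone body genes was higher and 1 lower. The NRF2 list (22 tested) and the glucocorticoid list (17 tested) had 1 lower gene each, Abcc4 and Angptl4. Hk2, Thrsp and Hp lost their calls without the 4 libraries rich in fat markers, as given above. Of the other genes given with full values, fat markers aside, Slc5a2, Slc3a2, Slc34a3, Foxi1, Phgdh, Creb3l3, Fgb and Cyp27b1 lost theirs. The adjusted p of these last 8 without those libraries ran from 0.0561 for Slc3a2 to 0.314 for Fgb.

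The same diet contrast could be read in 2 other sets of libraries. The single-regimen libraries were fitted separately, while the repeated PERC libraries were part of the fit that called the genes and so shared its filter and its estimate of the spread. In the single regimen, 4 HFD and 5 LFD vehicle libraries gave 234 calls of 14280 genes tested (1.64%). Of 962 called genes tested in both, 910 had the same sign there (94.6%), against 66.01% of all genes tested in both, 151 were also called with the same sign and none with the opposite sign. Of those 234 calls, 151 (64.5%) were called in the repeated regimen. Among mice given 5 doses of PERC, 8 HFD and 9 LFD libraries gave 891 calls (6.1%). Of the 970 genes, 930 had the same sign there (95.9%), against 67.4% of all genes, 393 were called with the same sign, which is 40.5% of the 970 and 44.1% of the 891, and 1 with the opposite sign, Angptl4. The libraries of both sets also differed in fat markers, with 6-marker sums of 11.9 to 93.7 CPM in HFD and 1.97 to 18.2 CPM in LFD of the single regimen, and of 9.99 to 282 CPM and 3.404 to 94.6 CPM after PERC. Pck1 was 2.14 higher on the log2 scale in the single regimen (adjusted p = 0.00468) and 0.91 after PERC (adjusted p = 0.00343). Slco1a1 was higher by 1.66 and 1.81, Ugt2b37 by 2.07 and 1.97, and Rarres2 by 1.58 and 1.31, each called in both sets. Ces1g was at log2 -3.82 and -3.07, and Stra6 at -1.82 and -2.36, again called in both. Glud1 was called after PERC (log2 0.46) and not in the single regimen (log2 0.49, adjusted p = 0.0810). Of the 8 intercalated cell markers 3 were called lower after PERC, where 3.07% of all genes were, and 1, Atp6v1g3, in the single regimen, where 0.763% were. Of the 48 PPARA targets and fatty acid oxidation genes 25 were called higher after PERC and none lower (median log2 0.38). None of the 48 was called in the single regimen (median log2 0.27). Over all genes 6.1% were called after PERC and 1.64% in the single regimen.

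**Figure D5:**
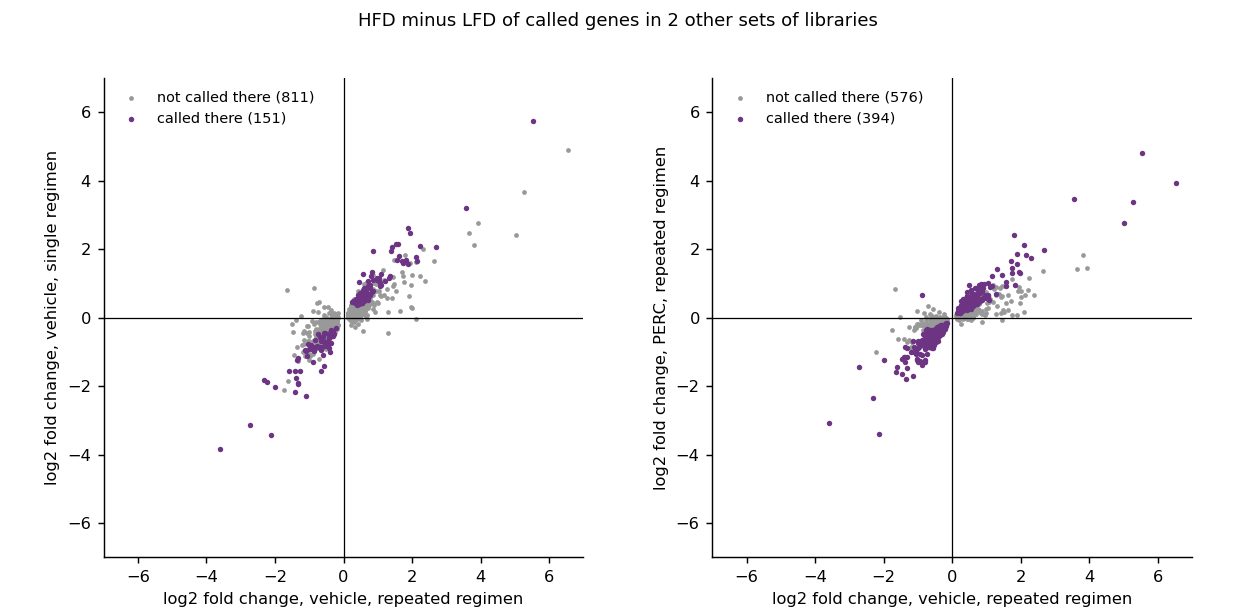
Log2 difference HFD minus LFD of the called genes in the repeated vehicle libraries (horizontal axes) against that in the single-regimen vehicle libraries (left, 962 genes tested in both) and in the repeated PERC libraries (right, 970 genes). Purple points were also called there, 151 on the left and 394 on the right, and most points lie in the lower left and upper right quadrants.

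The difference between these contrasts was tested directly. The diet effect differed between PERC and vehicle libraries in 2 of 14614 genes (0.0137%), Angptl4 and Sntg2. After PERC, Angptl4 was at 57.2, 114 and 160 CPM in LFD and 121, 150 and 293 CPM in HFD, so that it was higher in HFD by 0.65 on the log2 scale with PERC (adjusted p = 0.0291) and lower with vehicle. The difference between the contrasts was 1.53 (SE 0.28, adjusted p = 0.0176). The diet effect differed between the repeated and the single regimen in 11 of 15139 genes (0.0727%). Of the 11, 6 are core clock genes or their outputs, Ciart, Dbp, Npas2, Per3, Arntl and Tef, and Nfil3 is also a clock-controlled repressor. In the repeated regimen none of these 7 was called, and Dbp, for example, was at 22.4, 42.02 and 55.9 CPM in LFD and 19.7, 32.1 and 40.7 CPM in HFD (log2 -0.39, adjusted p = 0.329). In the single regimen it was at 1.93, 2.76 and 13.4 CPM in LFD and 20.05, 24.8 and 28.3 CPM in HFD. For vehicle mice of the single regimen the sources used here give no hour of death, and regimen, lane and hour cannot be told apart.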

How the data were processed

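For every library the authors deposited unnormalized counts of reads, listed by gene symbol. The submitters' processing notes name the tools HTSeq, TopHat2 2.0.13, DESeq2, Trimmomatic and bcl2fastq 2.17.1.14 and the build GRCm38 (mm10), with no role or order. Per the labels' protocols, total RNA was extracted with Qiagen miRNEasy kits and libraries were made with a stranded Illumina Truseq mRNA kit. The annotation and strand setting are not given in the sources used here. Genes that overlap another gene are therefore uncertain. The 5 summary rows of reads in no gene were left out (50.0 to 59.5% of reads were in genes), and so were 5 single-regimen libraries under 1000000 counts. Counts in genes set the depth of each library.

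The deposited counts were tested with edgeR 4.0.16 in R 4.3.3 (filterByExpr by group, TMM, robust quasi-likelihood F test) in 1 fit to the 47 repeated-regimen libraries in 6 diet and treatment groups. SEs are the log2 difference divided by the square root of F. The contrast of regimens used 1 fit to 72 libraries in 12 groups. DESeq2 1.42.0 and the other alternatives are in the closing section. On simulated counts the fit recovered 76.1% of genes changed 1.5-fold, 86.6% changed 2-fold and 100% changed 4-fold in the main comparison, at 14614 genes. For the contrast of PERC and vehicle the shares were 49.3%, 76.1% and 97.0%, and for the contrast of regimens 29.9%, 70.1% and 89.4%. A gene that these 2 contrasts did not call is thus not shown to have equal diet effects. Gene lists are described by counts and medians, with no set test. The comparison and its lists were chosen with earlier results of these data known. Named are the 12 called genes with the smallest p per direction, up to 4 called members per direction and 3 near misses of each of 48 lists, the fat markers, Havcr1 and Lcn2, and the 5 smallest p of each interaction test. The other 6 of the 11 genes of the regimen contrast were named after their values were seen. Some genes that the rule names are not reported here. Replicate numbers follow accession order and pair no samples.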

Additional observations from a re-analysis of the deposited data

Results flagged for a closer look

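In 92 sets of 1 gene in 1 diet group, 9 held a library far from the others, where chance gives about 1 in 20. LFD replicate 6 stood apart in 4 genes: it was the highest at 76.6 CPM for Atp6v1g3 (next library 59.8 CPM) and at 13.5 CPM for Stra6 (next 6.72 CPM), and the lowest at 42.1 CPM for Hebp1 (next 50.2 CPM) and at 67.3 CPM for Mogat1 (next 96.6 CPM). In each of these genes it lay on the far side of the LFD group from the HFD libraries. HFD replicate 4 was the highest of its group for Cfi, at 6.78 CPM, and for Fgb, at 3.53 CPM, and it had the lowest 6-marker fat sum of the HFD libraries, 3.18 CPM. The other 3 were Ctxn3 in HFD replicate 1 (15.7 CPM), Lcn2 in HFD replicate 3 (4.20 CPM) and Cyp27b1 in LFD replicate 1 (33.8 CPM).

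The diet effect differed between PERC and vehicle libraries, by the test of that difference, for Sntg2 (1.54 on the log2 scale, SE 0.27, adjusted p = 0.0122) and Angptl4 (1.53). Sntg2, a dystrophin-associated protein, was at 0.653, 1.12 and 1.39 CPM in LFD and 0.501, 1.02 and 1.22 CPM in HFD with vehicle, and at 0.404, 0.877 and 0.983 and 1.39, 2.02 and 2.77 CPM with PERC.

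The diet effect differed between the repeated and single regimens, repeated minus single on the log2 scale, by -3.26 for Ciart, -2.68 for Dbp, 2.20 for Npas2, -1.27 for Per3, 1.98 for Arntl, -0.74 for Tef and 2.36 for Nfil3, with adjusted p between 2.2e-04 and 0.0284. In each of these 7 the single-regimen diets were apart and the repeated-regimen diets were not called different. Ciart, a clock repressor, was at 0.395, 0.719 and 0.812 CPM in LFD and 3.55, 4.63 and 7.85 CPM in HFD of the single regimen, against 4.44, 8.37 and 13.7 and 5.18, 6.77 and 10.7 CPM in the repeated one. Ypel2 (1.24), Rhobtb1 (0.93) and Cdc20 (-1.74) followed the same pattern. Nanp (-10.7, adjusted p = 0.0203) rests on few libraries: in the repeated regimen its median was 0 CPM in LFD and 0.054 CPM in HFD with highest values of 7.44 and 0.141 CPM, and in the single regimen the HFD median was 0.059 CPM and the highest value 16.99 CPM. Regimen, lane and hour of death cannot be told apart for these genes.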

How the results depend on the processing

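No paired analysis was possible because replicate numbers follow accession order and carry no link between groups. The 970 calls of the main comparison became 365 with the 12-marker fat list as a covariate, 215 with the 6 defining fat markers as a covariate, 430 without the 4 HFD libraries rich in them (both chosen after seeing the data) and 1703 in a fit to the 15 libraries alone. They were 1149 with DESeq2, 982 with its size factors in edgeR, 857 without the low-count filter (52.7% of them higher, against 58.1%), 1250 with lane as a covariate, 846 in a fit to all 12 groups and 688 to 1013 without 1 library each. Leaving out libraries over 3 times the median of the 12-marker sum removed none from the main or the regimen comparison. The 2 calls of the PERC contrast became 5 with DESeq2, 1 with either fat covariate and 1 to 5 without 1 library (1 without HFD PERC replicate 7, 4 or 5 without LFD PERC replicates 1, 3 or 4 or HFD PERC replicate 3). The 11 calls of the regimen contrast became 19 with DESeq2 and 5 to 16 without 1 library, with 5 to 7 without single-regimen HFD replicate 3 or 5 or LFD replicate 3 or 4, or repeated HFD replicate 6 or LFD replicate 1. At an unadjusted p under 0.05 the 2 contrasts gave 805 of 14614 and 664 of 15139 genes. Chance alone gives a share of about 0.05, and both counts are near it.

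Directions turned for few genes. With the 6 markers as a covariate, log2 differences were -0.39 for Adipoq, -0.36 for Cidea, -0.29 for Cidec and -0.34 for Plin1 (members of the covariate itself), -0.22 for Fabp4, -0.032 for Hk2, -0.15 for Hp, -0.70 for Thrsp and 0.31 for Havcr1. With the 12-marker covariate they were -0.032 for Fabp4, -0.27 for Thrsp and 0.21 for Havcr1. Lcn2 was at -0.062 without the 4 libraries and from -0.083 (without HFD replicate 3) to 0.28 (without HFD replicate 5) with 1 library left out. Of the other gene values under alternatives, 348 kept direction and call and 53 lost the call, and for 1 library left out 625 kept both and 64 lost the call; the cause was not tested. Depth limits genes under 1 CPM, such as F2 and Creb3l3 in HFD, to few counts per library.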
